A study of Homo sapiens with 3 samples.

Results

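Autophagy delivers cytoplasm and worn organelles to the lysosome, where acid hydrolases break them down. The ULK kinase complex starts the process, a lipid kinase complex marks the membrane, ATG9A, ATG2A and WIPI proteins supply and shape it, and ubiquitin-like conjugation attaches ATG8 proteins, which hold cargo receptors. A rotary proton pump, the V-ATPase, acidifies the lysosome, and the transcription factors TFEB and TFE3 drive many lysosomal genes. Liver cells use the pathway heavily to recycle protein and lipid, and it is also where particles taken up by endocytosis end.

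The set holds 53 autophagy and lysosome genes of 18417 genes measured, picked by name: 24 of the autophagosome, 13 acid hydrolases, 11 of the proton pump, 3 of the lysosomal membrane and 2 transcription factors. Each gene was read from the probe set (a group of array probes) that carries only its symbol, and from the one with the highest mean where there were several. Only ATG4B and NEU1 had more than 1 such probe set. The values came from HepG2, an established human liver tumour line, with 1 array for each of 3 groups: GO (graphene oxide, an oxidised carbon sheet), rGO (reduced graphene oxide, which carries fewer oxygen groups) and untreated control cells. Each exposure lasted 24 h at the EC20 of its material, the dose tied to a 20% effect in a viability assay. No concentration is stated for either material, and the 2 doses may be unequal.

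The values are log2 expression as deposited by the authors, with array medians of 6.63 (GO), 6.66 (rGO) and 6.65 (control). With 1 array per group no test or error exists, and none of the differences below can be told apart from variation between dishes of cells or between arrays. In bulk RNA a change in every cell and a change in a share of the cells cannot be told apart either. Differences are log2 values of 1 array minus another. Counts of genes use 1.5-fold, a log2 difference of 0.58, while higher and lower elsewhere give only the sign of a difference. The 11050 genes whose mean reached the 40th percentile of all genes (log2 6.66) serve as background. Of the 53 members 50 passed that level, and ULK2, MAP1LC3B and CTSZ did not. Of 8 hepatocyte markers HNF4A had no probe set that carries only its symbol. The other 7, ALB, APOA1, APOB, AFP, TTR, SERPINA1 and FGB, all passed the level, with ALB at 13.49 (GO), 13.57 (rGO) and 13.50 (control). Of 6 macrophage and leukocyte markers only LYZ passed it, at 13.43, 13.38 and 13.23 in the same order. The pan-leukocyte gene PTPRC stood at 3.56, 3.76 and 3.65, and the macrophage gene CD14 at 5.97, 6.01 and 6.33. The linear values of the 7 hepatocyte markers summed to 41511 (GO), 43428 (rGO) and 41563 (control), those of the 6 leukocyte markers to 11239, 10873 and 9816, nearly all of it LYZ, and those of 5 fibroblast and endothelial markers to 321, 321 and 344. Of these 5 only COL1A1 passed the level, at 7.36 (GO), 7.26 (rGO) and 7.43 (control). Within the hepatocyte list TTR, a transport protein, stood at 12.08, 11.54 and 11.38, and the fibrinogen gene FGB at 10.77, 11.52 and 11.62, so liver genes also differed with GO in both directions. The part of any of these markers in the results was not tested.

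TFEB and TFE3 bind an E-box with the core CACGTG, often inside the longer GTCACGTG or its reverse complement CACGTGAC, and the promoters of 9 members that carry it are shown because this factor family is known for driving lysosomal genes. The sequences are from RefSeq on GRCh38.p14, each ends at the last base before the annotated start of its gene, and capitals mark the core. LAMP1, a main glycoprotein of the lysosomal membrane, held the core 6 times in its window, 5 of them in the 200 bases printed from chr13:113297039-113297238 on the plus strand.
LAMP1: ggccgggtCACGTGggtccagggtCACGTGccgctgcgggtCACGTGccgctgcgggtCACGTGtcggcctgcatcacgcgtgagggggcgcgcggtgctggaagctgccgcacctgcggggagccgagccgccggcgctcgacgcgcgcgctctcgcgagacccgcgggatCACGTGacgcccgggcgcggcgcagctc

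The next 3 stretches belong to the acid hydrolases GAA, which digests glycogen, CTSA, a carboxypeptidase that also protects other hydrolases, and CTSD, the aspartic protease of the lysosome. They lie at chr17:80101481-80101580 (plus strand), chr20:45891275-45891334 (plus strand) and chr11:1763928-1764007 (minus strand). In GAA both cores were flanked on both sides by the longer motif's letters.
GAA: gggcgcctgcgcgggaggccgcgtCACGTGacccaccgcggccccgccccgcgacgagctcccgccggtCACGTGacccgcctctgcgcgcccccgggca
CTSA: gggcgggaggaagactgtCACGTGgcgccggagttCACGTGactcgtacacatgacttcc
CTSD: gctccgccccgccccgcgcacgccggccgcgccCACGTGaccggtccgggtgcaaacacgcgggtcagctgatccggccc

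Of the membrane and pump genes, MCOLN1, the lysosomal calcium channel, lies at chr19:7522564-7522623 (plus strand), ATP6V0B at chr1:43974880-43974959 (plus strand) and ATP6V0D1 at chr16:67481158-67481237 (minus strand).
MCOLN1: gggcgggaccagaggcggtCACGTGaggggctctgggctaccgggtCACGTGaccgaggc
ATP6V0B: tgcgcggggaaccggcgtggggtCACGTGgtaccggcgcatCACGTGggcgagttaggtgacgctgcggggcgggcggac
ATP6V0D1: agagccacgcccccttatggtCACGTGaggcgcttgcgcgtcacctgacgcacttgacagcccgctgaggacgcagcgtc

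Of the 3 members that hold the core and lay below 0 with GO, ATG14 (-0.12) is not printed, and the other two are ATG3, the enzyme that passes ATG8 proteins to the membrane lipid, at chr3:112561963-112562022 (minus strand), and NEU1, the lysosomal sialidase, at chr6:31862822-31862971 (minus strand). ATP6V1E1, a pump subunit that was also lower with GO, had no core in either of its 2 windows. The stretch of its first window is shown as an example without the core (chr22:17628823-17628922, minus strand). WIPI1 and ATG9A, which were higher with GO, had no core either.
ATG3: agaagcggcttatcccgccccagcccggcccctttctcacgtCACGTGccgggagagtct
NEU1: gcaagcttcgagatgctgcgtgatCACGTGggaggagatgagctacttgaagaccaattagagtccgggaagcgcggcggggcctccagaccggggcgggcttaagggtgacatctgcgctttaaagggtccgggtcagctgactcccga
ATP6V1E1: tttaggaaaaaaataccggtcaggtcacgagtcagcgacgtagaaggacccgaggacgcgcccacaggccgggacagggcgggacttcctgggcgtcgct

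The first comparison set GO-exposed cells against untreated cells. Differences among the members were small and went both ways: the membrane-supply genes WIPI1, ATG9A and WIPI2 and the initiation genes ATG13 and ULK1 were higher in the GO array by 0.25 to 0.49, while the conjugation genes ATG3 and ATG5 and the pump genes ATP6V1C1 and ATP6V1E1 were lower, with differences of -0.77 to -0.53. Of the 50 members past the level, 0 were at least 1.5-fold higher, beside 1.91% of all genes, and ATG3 alone was at least 1.5-fold lower, beside 4.23%. At 2-fold 0 members counted, beside 1.17% of all genes in either direction. The members' count is therefore near or under the background. Of the 50, 32 stood above 0, beside 51.1% of all genes, with a median of 0.08 against 0.01 over all genes.

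**Figure D1:**
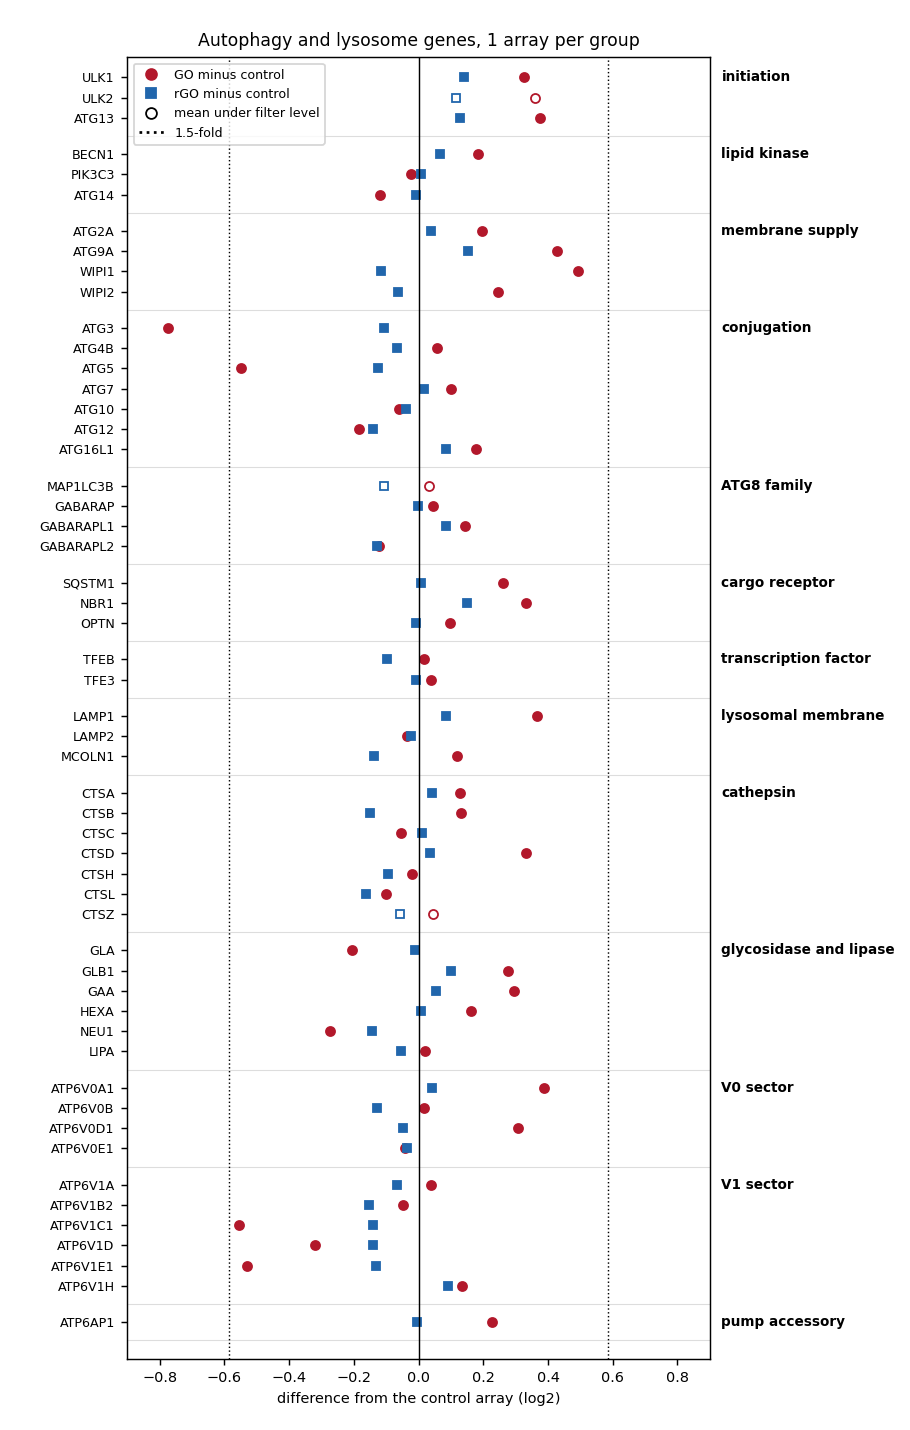
Difference from the control array (log2, x axis) of each of the 53 genes (rows, by role), with GO as circles and rGO as squares; open symbols mark genes under the filter level and dotted lines a 1.5-fold difference. The GO circles spread from ATG3 at -0.77 to WIPI1 at 0.49, whereas the rGO squares stay between -0.16 and 0.15.

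The initiation genes lay above 0 with GO, and 0 of them reached 1.5-fold, beside 1.91% of all genes at least 1.5-fold higher. ULK1, the kinase that receives the starvation signal, stood at 8.03 (GO), 7.84 (rGO) and 7.70 (control), and its partner ATG13 at 9.46 (GO), 9.21 (rGO) and 9.08 (control). In both genes the GO array was the highest and the control the lowest, with GO differences of 0.32 and 0.37. The related kinase ULK2 had the same order at 4.94, 4.70 and 4.58, but its level lay far under the filter, where background can hide signal.

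The 4 genes of membrane supply were all above 0 with GO, with a median of 0.34. WIPI1, which reads the phosphoinositide mark on the growing membrane, had values of 10.50 (GO), 9.89 (rGO) and 10.01 (control). Its GO array stood apart from the other two arrays, with a difference of 0.49 from control, a 1.41-fold higher level that exceeded the difference of 96.9% of all genes. ATG9A, the scramblase of vesicles that seed the autophagosome, stood at 9.73 (GO), 9.45 (rGO) and 9.30 (control), a difference of 0.43. WIPI2, which recruits ATG16L1, differed by 0.25 and the lipid transfer protein ATG2A by 0.19.

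The lipid kinase genes lay close to control. BECN1, the scaffold of the complex, stood at 8.71 (GO), 8.59 (rGO) and 8.53 (control), PIK3C3, the kinase itself, at 9.34, 9.37 and 9.36, and ATG14, the subunit that directs it to autophagy, at 7.67, 7.78 and 7.79. Their GO differences were 0.18, -0.02 and -0.12.

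The conjugation genes held the lowest member. ATG3 stood at 9.22 in the GO array, against 9.88 with rGO and 9.99 in the control. It was thus low in the GO array alone, 1.71-fold lower than control (-0.77), and only 1.90% of all genes had a lower difference. ATG5, which forms the conjugate with ATG12 that guides ATG3, stood at 8.69 (GO), 9.12 (rGO) and 9.24 (control). This difference of -0.55 lay just inside 1.5-fold. ATG12 itself differed by -0.19 and ATG10, the enzyme that joins it to ATG5, by -0.06. On the other side of 0 were ATG7, the activating enzyme shared by both conjugation routes (0.10), ATG16L1, the partner of the ATG12 conjugate (0.18), and ATG4B, the protease that trims ATG8 proteins (0.06). The median over the 7 conjugation genes was -0.06, and their mean, which ATG3 and ATG5 pull down, was -0.18. With the level filter at the 60th percentile the median was -0.25. The second probe set of ATG4B differed by 0.03.

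ATG8 family genes showed no common direction. GABARAP stood at 11.89 (GO), 11.84 (rGO) and 11.85 (control), GABARAPL1 at 8.47, 8.41 and 8.33, and GABARAPL2 at 10.38, 10.37 and 10.50. Their GO differences were 0.04, 0.14 and -0.12. MAP1LC3B, the LC3 gene used to follow autophagy, differed by 0.03 at a level just under the filter. MAP1LC3B and GABARAPL1 have near-identical copies elsewhere in the genome, so their probe sets may read more than 1 gene.

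Cargo receptors were above 0 with GO. SQSTM1, which encodes p62 and is itself degraded by autophagy, stood at 10.73 (GO), 10.47 (rGO) and 10.47 (control), with the GO array apart from the other two. NBR1, which acts beside p62 on protein aggregates, stood at 9.65 (GO), 9.46 (rGO) and 9.31 (control). The differences from control were 0.26 for SQSTM1, 0.33 for NBR1 and 0.10 for the mitophagy receptor OPTN.

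The genes of both transcription factors hardly differed, TFEB with values of 7.52 (GO), 7.41 (rGO) and 7.51 (control) and TFE3 with 8.85, 8.81 and 8.81. These are transcript levels, and both factors are known to be controlled mainly by phosphorylation and entry to the nucleus, which an array does not read. Of the lysosomal membrane genes, LAMP1 stood at 10.60 (GO), 10.32 (rGO) and 10.23 (control), a difference of 0.37 that exceeded that of 92.8% of all genes. LAMP2, needed for fusion with autophagosomes and for chaperone-mediated uptake, differed by -0.04, and MCOLN1 by 0.12.

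**Figure D2:**
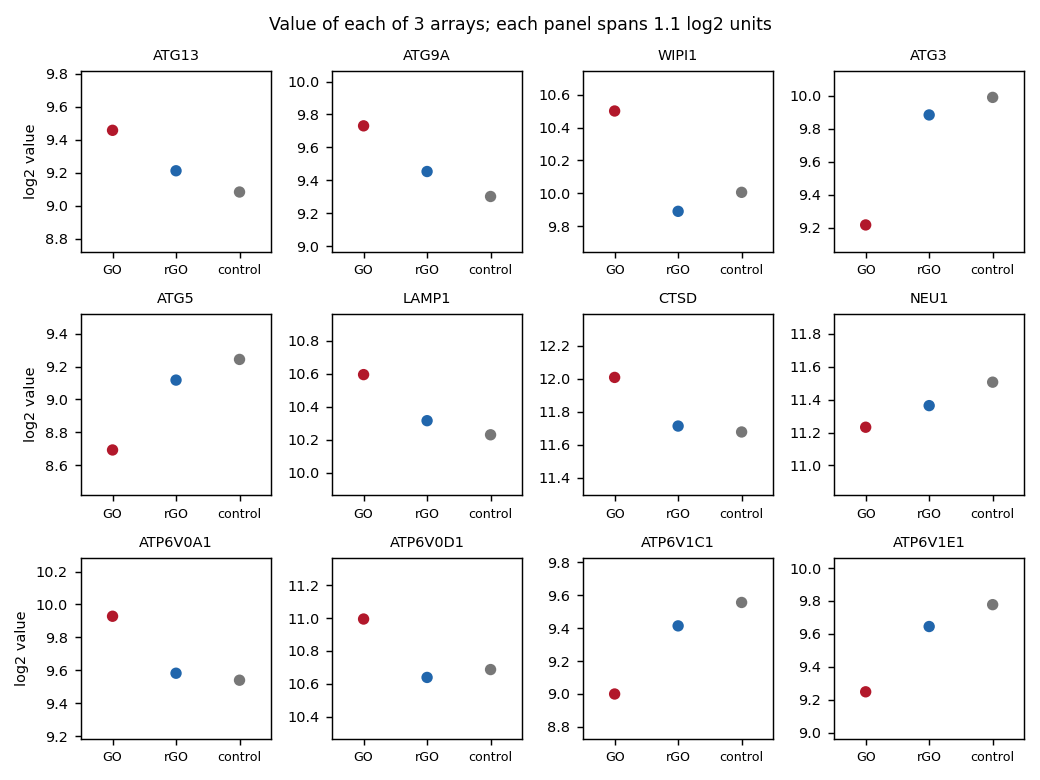
Deposited log2 value (y axis) of 12 members in the GO, rGO and control arrays, 1 point per array, with every panel spanning the same range. ATG3, ATG5, ATP6V1C1 and ATP6V1E1 are lowest in the GO array, whereas WIPI1, LAMP1, CTSD and ATP6V0A1 are highest there.

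Of the 12 acid hydrolases past the level, 7 were above 0 with GO and 5 below, with a median of 0.07. At 1.5-fold 0 of the 12 counted, beside 1.91% of all genes higher and 4.23% lower. CTSD stood at 12.01 (GO), 11.71 (rGO) and 11.68 (control), a difference of 0.33. GAA stood at 8.88 (GO), 8.64 (rGO) and 8.58 (control), and GLB1, the beta-galactosidase, at 10.17, 9.99 and 9.89, differences of 0.30 and 0.28. In all 3 genes the GO array was the highest. HEXA, a hexosaminidase subunit that degrades gangliosides, differed by 0.16.

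The cathepsins other than CTSD stayed closer to control. CTSA and CTSB, a cysteine protease, both differed by 0.13, CTSC, which activates granule proteases, by -0.05, the aminopeptidase CTSH by -0.02, CTSL by -0.10 and CTSZ, under the level filter, by 0.04. NEU1, by contrast, stood at 11.23 (GO), 11.36 (rGO) and 11.51 (control), lowest in the GO array, and all 3 of its probe sets gave a difference of -0.27. Its 2 other probe sets held identical values of 11.19 (GO), 11.31 (rGO) and 11.46 (control), so they are no independent readings. Whether the chosen probe set is independent of them is not known. GLA, the alpha-galactosidase, differed by -0.21, and the lipase LIPA, which frees cholesterol from its esters, by 0.02.

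Among the 11 proton pump genes the sectors differed in sign. The membrane sector V0, which carries protons across the membrane, had a median of 0.16 over 4 members, and the cytosolic sector V1, which hydrolyses ATP, one of -0.19 over 6. With the level filter at the 60th percentile the V1 median was -0.049. ATP6V0A1, the V0 subunit with the proton half-channels, stood at 9.93 (GO), 9.58 (rGO) and 9.54 (control), and ATP6V0D1, which links V0 to the rotor, at 10.99 (GO), 10.64 (rGO) and 10.69 (control). Both were high in the GO array alone, by 0.39 and 0.31 over control. ATP6V0B, of the proton-carrying ring, differed by 0.02 and the small subunit ATP6V0E1 by -0.04.

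In V1 the low values with GO lay outside the catalytic head. ATP6V1A and ATP6V1B2, the subunits of the ATP-hydrolysing ring, differed by 0.04 and -0.05. ATP6V1C1, which clamps V1 onto V0, stood at 9.00 (GO), 9.41 (rGO) and 9.56 (control), and ATP6V1E1, of the outer stalks, at 9.25 (GO), 9.64 (rGO) and 9.78 (control). These were 1.47-fold and 1.44-fold lower with GO, and in both the GO array stood apart from the other two. ATP6V1D, of the central rotor, stood at 7.36 (GO), 7.54 (rGO) and 7.68 (control), a difference of -0.32. ATP6V1H, a regulatory subunit, went the other way at 8.08, 8.04 and 7.95 (0.13), and the accessory ATP6AP1 differed by 0.23.

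Of the pump genes outside the 53, 12 of 15 measured passed the level. ATP6V1G1, the partner of the E subunit in the outer stalks, differed by -0.43 with GO and ATP6V1F, of the rotor, by -0.40. Grouped by place, a grouping made after the values were seen, 5 of 6 V1 stalk and regulatory genes past the level were below 0 with a median of -0.41, while the 3 head genes lay between -0.11 and 0.04. Of the 8 V0 genes 4 were above 0 and 4 below, since ATP6V0C, of the ring, stood at 0.42 but the alternative a subunits ATP6V0A2 and TCIRG1 at -0.37 and -0.33. The V0 median over all 8 was -0.01, against 0.16 for the 4 listed members, so a sign for V0 as a whole was not shown.

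**Figure D3:**
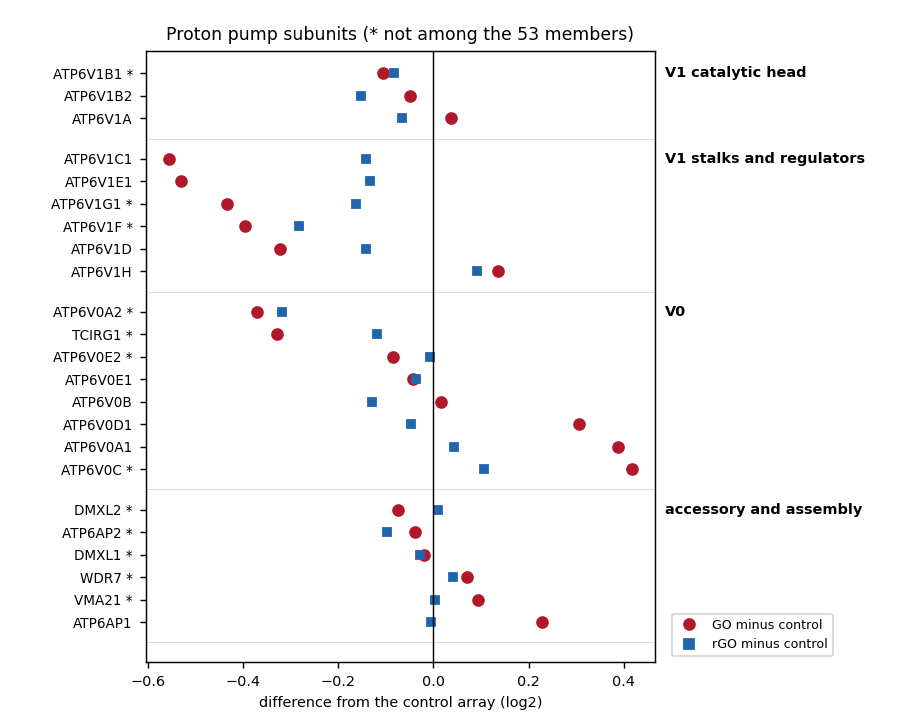
Difference from the control array (log2, x axis) of proton pump genes past the filter level, by their place in the complex, with GO as circles and rGO as squares; asterisks mark genes outside the set of 53. With GO, 5 of 6 V1 stalk and regulatory genes lie below -0.3, and the V0 genes lie on both sides of 0.

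Set side by side with GO, the autophagosome genes past the level had a median difference of 0.12 (22 genes, 15 above 0), the acid hydrolases one of 0.07 (12 genes, 7 above 0) and the proton pump one of 0.02 (11 genes, 6 above 0). The autophagosome genes ranged from -0.77 to 0.49, the pump genes from -0.56 to 0.39 and the hydrolases from -0.27 to 0.33. Single genes past the level had a robust SD (scaled median absolute deviation) of 0.24 in this difference. Genes are not replicates, so the groups were not tested against each other, and whether their medians differ is not shown. The order of the autophagosome and hydrolase medians also depends on the genes listed. The other autophagy machinery, described below, had a median of 0.00 over 23 genes and the other lysosomal hydrolases one of 0.21 over 21.

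**Figure D4:**
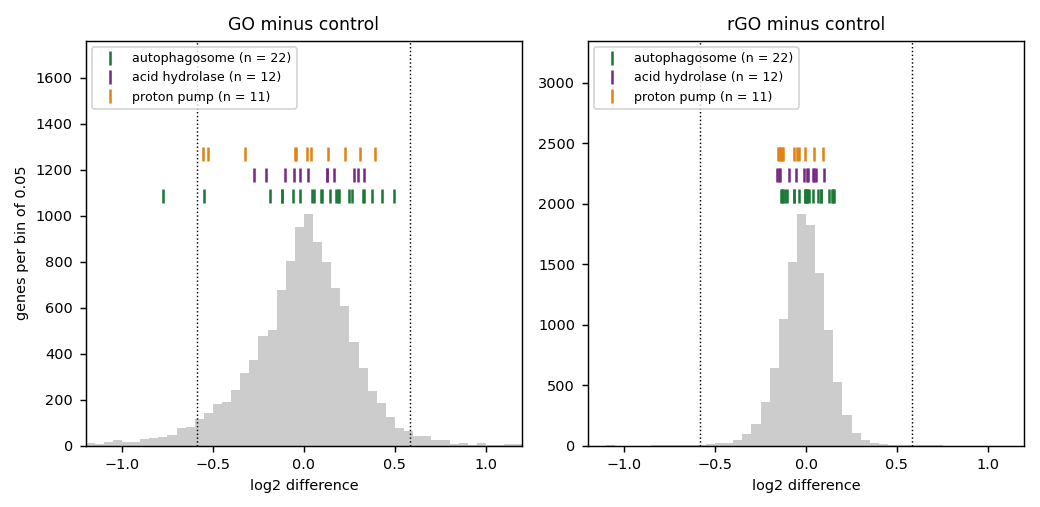
Counts of all 11050 genes past the filter level by log2 difference (grey bars, bins of 0.05, drawn from -1.2 to 1.2) for GO minus control and rGO minus control, with a tick above for each autophagosome, acid hydrolase and proton pump gene; dotted lines mark 1.5-fold. The ticks of all 3 groups lie within the bulk of the grey bars, and only ATG3 passes a dotted line.

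The second comparison set rGO-exposed cells against the same control array. All 50 members past the level lay between -0.16 (CTSL) and 0.15 (ATG9A), with a median of -0.01 and 20 above 0, beside 46.8% of all genes. At 1.5-fold 0 members were higher, beside 0.0271% of all genes, and 0 were lower, beside 0.127%. At 2-fold 0 counted, beside 0.0181%. Single genes past the level had a robust SD of 0.12 in this difference.

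Within this narrow range 5 of 6 V1 genes lay below 0, where 46.8% of all genes lay above 0. ATP6V1B2, ATP6V1C1, ATP6V1D and ATP6V1E1 stood at -0.15, -0.14, -0.14 and -0.13 with rGO, ATP6V1A at -0.07 and ATP6V1H at 0.09, and the V1 median was -0.14. The pump as a whole had a median of -0.07 with 9 of 11 below 0, the acid hydrolases one of 0.00 with 6 of 12 below, and the autophagosome genes one of 0.00 with 11 of 22 below. ATG9A, NBR1, ULK1 and ATG13 were the highest members, at 0.15, 0.15, 0.14 and 0.13, and after CTSL the lowest outside the pump were CTSB at -0.15 and NEU1 at -0.14. The GO and rGO differences share the control array, so an error in that array moves both the same way. Their likeness was therefore not measured.

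Setting the GO array against the rGO array directly gave 1 member at least 1.5-fold higher, beside 1.82% of all genes, and 1 at least 1.5-fold lower, beside 3.20%. The first was WIPI1, 1.53-fold higher with GO (0.61), and the second ATG3, 1.59-fold lower (-0.67). At 2-fold 0 members counted, beside 0.796%. Of the 50 members 36 were above 0, beside 52.9% of all genes, with a median of 0.10 against 0.01 over all genes. ATG5, ATP6V1C1 and ATP6V1E1 followed ATG3 on the lower side at -0.42, -0.41 and -0.40, and ATP6V0D1 and ATP6V0A1 followed WIPI1 at 0.35 and 0.35. GO and rGO differ in their content of oxygen groups, but since their doses are not given these are values side by side, and each also shares an array with a comparison above.

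Other genes of the pathway were described from 6 further lists. Of 33 other lysosomal hydrolases and activators 27 were measured and 21 passed the level, of which 19 were above 0 with GO, beside 51.1% of all genes, with a median of 0.21. IDS, the iduronate sulphatase, was 0.66 higher, at 9.06 (GO) against 8.40 (control), the 1 gene of 21 past 1.5-fold, beside 1.91% of all genes, and SMPD1, the acid sphingomyelinase, 0.44 higher. The 2 below 0 were the ceramidase ASAH1 (-0.42) and the thioesterase PPT1 (-0.35). With rGO the same list had a median of -0.01, with 9 of 21 above 0, from PPT1 at -0.12 to the iduronidase IDUA at 0.15.

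Of 11 other cargo receptors measured, 10 passed the level, with a median of 0.07 with GO. TAX1BP1, a receptor for ubiquitinated cargo, stood at 9.44 (GO) against 10.31 (control), and FUNDC1, a mitophagy receptor of the outer mitochondrial membrane, at 7.75 against 8.38. Their differences, -0.87 and -0.63, both passed 1.5-fold, 2 of 10 genes beside 4.23% of all genes, whereas the hypoxia-responsive mitophagy receptors BNIP3L and BNIP3 stood at 0.34 and 0.31. With rGO this list ran from TAX1BP1 at -0.19 to the ferritin receptor NCOA4 at 0.06.

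The remaining autophagy machinery had a median of 0.00 with GO over 23 genes, 13 of them above 0, beside 51.1% of all genes. At 1.5-fold 0 of the 23 counted, beside 1.91% of all genes higher and 4.23% lower. RB1CC1, the scaffold of the ULK complex, stood at -0.52 with GO, opposite to ULK1 and ATG13, and at -0.26 with rGO, the lowest of the list. The fusion protein VAMP8 stood at -0.56 with GO, the autophagosome-lysosome tether TECPR1 at 0.32 and the inhibitor RUBCN at 0.31, and AMBRA1, a regulator of BECN1, was the highest with rGO at 0.12. Lysosomal membrane and delivery genes had a median of 0.07 over 21 genes with GO, with the cholesterol exporter NPC1 at 0.59, the 1 gene of 21 past 1.5-fold, beside 1.91% of all genes, the channel TPCN1 at 0.52, LAPTM4B at -0.28 and TMEM192 at -0.22. NPC1 and LAPTM4B were also the highest and lowest with rGO, at 0.10 and -0.25. Genes of mTORC1 and AMPK, which restrain and promote autophagy, had a median of 0.07 over 26 genes with GO. Of these 26, 0 counted at 1.5-fold, beside the same 1.91% and 4.23% of all genes. The AMPK subunits PRKAA2 and PRKAB1 stood at 0.54 and 0.53, RHEB, which activates mTORC1, at -0.28 and LAMTOR3 at -0.27. MTOR and RPTOR stood at 0.26 and 0.35, so the mTORC1 genes went both ways. Of the 26, 17 were above 0 and 9 below. With rGO this list ran from FOXO3 at -0.29 to RRAGB at 0.19. The other pump genes had a median of -0.08 over 12 genes with GO, with VMA21, an assembly factor of V0, second highest at 0.09, and ran from ATP6V0A2 at -0.32 to ATP6V0C at 0.11 with rGO.

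The promoter windows, 250 bases before to 50 after the start, were found for 45 of the 53 members, among them all 24 autophagosome genes. The core CACGTG occurred in those of 10 members, 22.2% of the 45, namely LAMP1, MCOLN1, CTSA, CTSD, GAA, NEU1, ATP6V0B, ATP6V0D1, ATG3 and ATG14. Of the 8886 genes past the level that had a window, 12.8% held it. The 45 also include ULK2, MAP1LC3B and CTSZ, which lay under the level and held no core. The core reads the same on both strands. The longer form, GTCACGTG or CACGTGAC, contains the core and occurred in 478 of the same 8886 genes (5.38%). By window, 7.26% of 35116 held the core and 2.40% the longer form. Members are counted by gene, so the shares by gene are the ones to set beside them. The core was found in 4 of 11 acid hydrolases, 2 of 6 pump genes and 2 of 24 autophagosome genes. LAMP1 and MCOLN1, the lysosomal membrane genes with a window, also held it. The bare core alone was found in NEU1, and the other 9 held the longer form. With GO the 10 had a median difference of 0.12, with 7 above 0, and the 32 members past the level without it one of 0.08, with 21 above 0. Over all genes the medians were 0.01 with and 0.01 without the core. The holders included LAMP1, CTSD and GAA on the higher side and ATG3 and NEU1 on the lower, so the core did not go with 1 direction. WIPI1, ATG9A, ATP6V0A1 and ATG13, which were higher with GO than any holder, had windows without it. A match in these letters does not show binding.

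The GC share of the promoter window, averaged over a gene's windows, ran with the GO difference. Across 42 members past the level Spearman's rho was 0.39, and across the 8886 genes 0.14. These are descriptions across genes that share 2 arrays. The 45 members with a window were cut into 3 bins by GC share, and medians were taken over those past the level. The 15 of lowest share (47.3 to 62.3%) had a median GO difference of -0.02. The 15 in the middle (63.3 to 70.0%) had one of 0.12 and the 12 of the highest (71.0 to 81.3%) one of 0.27. ATG5, ATP6V1E1 and ATG3 had shares of 47.3%, 52.3% and 59.0%, and WIPI1, CTSD and GAA shares of 79.7%, 77.3% and 81.3%. Other members went against this. ATG13, with 0.37, had only 49.0%, NBR1, with 0.33, 54.7% and WIPI2, with 0.25, 57.7%. ATG10 and CTSH, at -0.06 and -0.02, had 76.7% and 73.3%. ATP6V1C1 had no window. With rGO rho was 0.06 in the members. Whether base composition has a part in the GO differences was not tested.

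**Figure D5:**
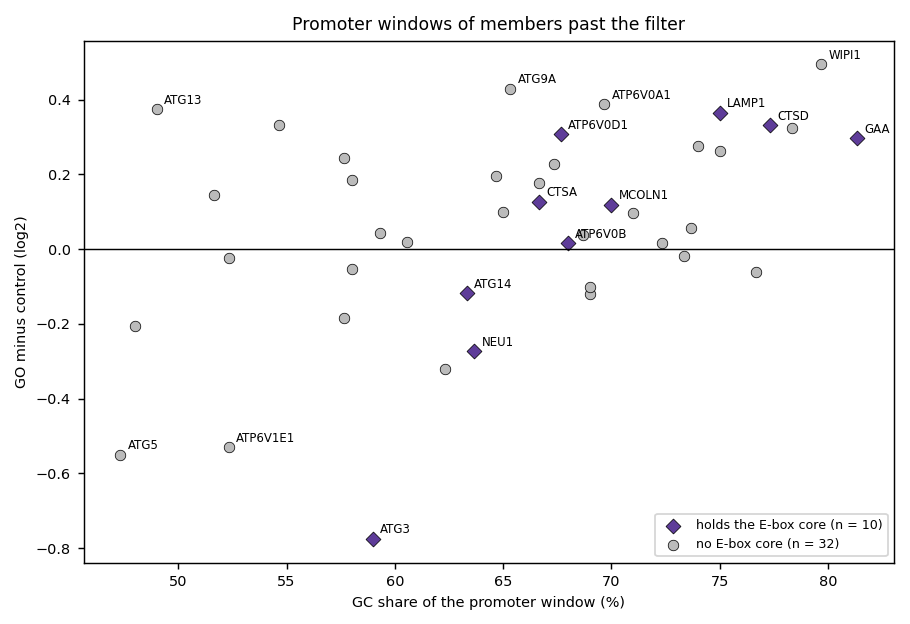
GO minus control (log2, y axis) against the GC share of the promoter window (%, x axis) for the 42 members past the filter level with a window, diamonds for the 10 that hold the E-box core and circles for the 32 that do not. ATG5, ATP6V1E1 and ATG3 lie low on the left side, and WIPI1, LAMP1, CTSD and GAA high on the right, but ATG13 lies high on the left.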

How the data were processed

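Biotin-labelled cDNA from total RNA of 3 HepG2 samples was hybridised to Affymetrix arrays, 1 per group. The authors deposited log2 values for 33297 probe sets. RMA and MAS5 are named, with no role or version, per the submitters' processing notes. Values are not centred per gene, and the background correction and scaling behind them stay unknown. The genome build behind the authors' probe sets is not stated in the sources used here. Depth has no meaning for arrays, and their number limits the precision.

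Of the probe sets, 19460 had 1 gene symbol in the platform annotation, which can be old, 1754 had several and 12083 none. Differences between arrays were computed per gene, with no test. The functions were tested on simulated data. Members and lists, and the size of 1.5-fold, were chosen with earlier results of these data known. All 53 members are named, and of 6 other lists the 2 highest and 2 lowest genes with GO and the highest and lowest with rGO. A few more genes of these lists are named where they limit a statement. The alternatives tried were median centring, quantile normalization, a loess on mean level (span 0.3), 2 other probe set choices, no or a 60th percentile filter, 2-fold, and means. Probe sets without a single symbol were not used. Software was pandas 2.3.3 and numpy 2.4.6 under Python 3.11.15, with the loess from statsmodels 0.14.6, correlations from scipy 1.17.1 and plots from matplotlib 3.10.9.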

Additional observations from a re-analysis of the deposited data

How the results depend on the processing

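With 1 array per group no replicate could be left out, and no paired analysis was possible because no group has a second sample. Of 264 values of group medians, each group recomputed under 8 alternatives, 10 changed sign. With the 60th percentile filter, which tests fewer genes, the median of the conjugation genes was -0.25 (GO minus control) and -0.17 (GO minus rGO), and that of the V1 members -0.049 and 0.043. Means in place of medians gave -0.18 and -0.12 for conjugation. At 2-fold the member counts that were 1 became 0, namely ATG3 with GO and WIPI1 and ATG3 in GO minus rGO. Over all genes the counts higher and lower at 1.5-fold moved by over 1.5 times at 2-fold, to 28 and 101 in place of 211 and 467 (GO minus control), 0 and 2 in place of 3 and 14 (rGO minus control) and 29 and 59 in place of 201 and 354 (GO minus rGO). For rGO they were also 14 and 52 with no filter and 0 and 9 with the 60th percentile filter, and 1 was higher with the mean of probe sets. Across alternatives the GO difference of ATG3 ranged from -0.79 to -0.75 and that of WIPI1 from 0.48 to 0.52. The pump median with GO ranged from -0.04 to 0.04, so it has no stable sign, whereas that of the autophagosome genes stayed between 0.07 and 0.18 and that of the acid hydrolases between 0.04 and 0.11. Genes near or under log2 6.66 are limited by background signal.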
